A study of Rattus norvegicus with 6 samples.

Results

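The 10 genes described here encode matricellular and adhesive glycoproteins of the extracellular matrix: the thrombospondins Thbs1, Thbs2, Thbs3 and Thbs4, tenascin C (Tnc), Sparc, osteopontin (Spp1), periostin (Postn), fibronectin (Fn1) and the cartilage intermediate layer protein (Cilp). They were chosen by gene symbol from the 32623 genes of the deposited table, and each symbol matched 1 gene. A mean level in FPKM over all 6 libraries would have decided between repeated symbols, so no measured value of these libraries chose among genes here. The list was drawn up with earlier results of these data known, so the number of its genes that changed is a description and not independent evidence.

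Matricellular proteins are secreted into the matrix but serve mainly as signals rather than as structural fibres. They bind integrins, CD47, CD36, CD44 and syndecans on the cell surface, and several of them bind collagen or regulate the activation of transforming growth factor beta (TGF-beta). In the heart most are low in the healthy adult and rise in the newborn, after injury and under overload, with fibroblasts, macrophages, smooth muscle cells and cardiomyocytes all known as sources.

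The study sequenced total RNA of primary ventricular myocardial cells from Sprague-Dawley rats aged 1 to 3 days. The cells of several rats were pooled into 1 isolate, from which every culture was set up. The p-values therefore set each difference only against the spread of these 6 libraries within their groups, and that spread may be technical. In 3 libraries the cells had been given siNC, a small interfering RNA used as negative control, and in the other 3 siMETTL3, which targets Mettl3, each for 24 h. Both groups then received lipopolysaccharide (LPS), the bacterial endotoxin, for 6 h. LPS is thus shared by both groups. Libraries without it were not analysed here, so the values do not show a response to LPS. Levels are in FPKM (fragments scaled to transcript length and sequencing depth) as the authors deposited them, and counts are those of the same table.

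The total count per library was 71202469 to 76668751. Every one of the 10 genes had at least 966 counts in each library. The part of counting error in the spread between libraries was not tested. Mettl3, which encodes the enzyme that methylates adenosine in messenger RNA (m6A), measured 18.2, 17.2 and 15.3 FPKM in the siNC libraries and 10.3, 10.6 and 9.90 FPKM in the siMETTL3 libraries (limma adjusted p = 0.00661). Cardiomyocyte markers were high in both groups: Myh6, the alpha myosin heavy chain, stood at 2303 ± 166 FPKM in siNC and 2459 ± 117 FPKM in siMETTL3, and Tnnt2, cardiac troponin T, at 3662 ± 221 and 4010 ± 360 FPKM (SD, n = 3). Markers of other cell types were present too. In bulk RNA, fewer cells of a type and less RNA per cell cannot be told apart.

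Most of the 10 genes were lower in the siMETTL3 cells. The groups were compared with limma on log2(FPKM + 1), with Benjamini-Hochberg adjustment over the 13105 genes that averaged 1 FPKM or more and a threshold of 0.05. All 10 genes entered the test. Of them, 8 fell, 0 rose and 2, Sparc and Thbs3, did not pass. At an unadjusted p under 0.05 limma had 9 lower and 0 higher. Over all tested genes 4.40% were called lower and 6.53% higher. The median log2 fold change was -0.50 over the 10 genes and 0.067 over all tested genes. All 10 fold changes were below 0, as were 36.3% of the limma fold changes of all tested genes. For 9 of the 10 genes every siMETTL3 library lay below every siNC library, which held for 11.5% of tested genes. With edgeR on the counts 9 fell, now including Sparc, and 0 rose, against 6.59% and 3.39% of all tested genes. The split of all calls depended on the scaling: 59.8% of called genes were higher by limma, 33.9% by edgeR and 31.4% after median-ratio scaling of FPKM. The median of all tested genes also differed, at 0.067 by limma, 0.0025 by edgeR and 0.0058 after median-ratio scaling of FPKM. For the 10 genes the edgeR median was -0.58. The share of all tested genes below 0 was taken by limma only. Omitting 1 library at a time, in the order siNC 1, siNC 2, siNC 3, siMETTL3 1, siMETTL3 2 and siMETTL3 3, gave 5, 5, 6, 5, 6 and 7 of the 10 genes called. Of all 13105 tested genes, the same fits called 131, 219, 390, 123, 253 and 326 lower. Cilp, Thbs1, Thbs2, Postn and Tnc were called in all 6 of those fits.

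**Figure D1:**
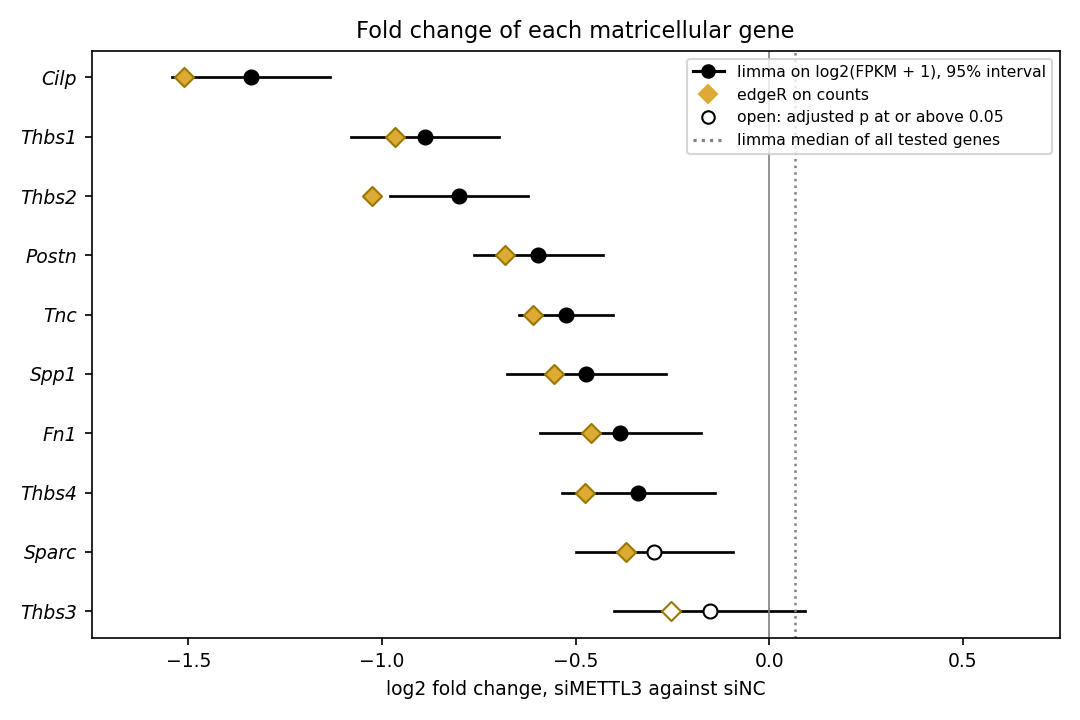
Log2 fold change of each gene, siMETTL3 against siNC (horizontal axis), by limma with its 95% confidence interval (circles and lines) and by edgeR (diamonds), with open symbols where the adjusted p was at or above 0.05. Values run from -1.34 for Cilp to -0.15 for Thbs3 by limma, and the dotted line is the limma median of all tested genes, 0.067.

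The levels spanned a wide range. In siNC cells the order by FPKM was Sparc, Fn1, Thbs1, Spp1, Tnc, Postn, Cilp, Thbs3, Thbs2 and Thbs4, from 1820 FPKM down to 5.71 FPKM. Sparc ranked 21 and Fn1 131 among the tested genes by mean level, and Thbs1 ranked 186. The neighbours Spp1 and Tnc, Tnc and Postn, and Thbs3 and Thbs2 overlapped in their siNC libraries, and the other neighbours did not. In siMETTL3 cells the order was the same except that Thbs2 stood below Thbs4, and only those neighbours overlapped. Together the 10 genes took 1.10% to 1.16% of all counts in the siNC libraries and 0.799% to 0.855% in the siMETTL3 libraries.

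**Figure D2:**
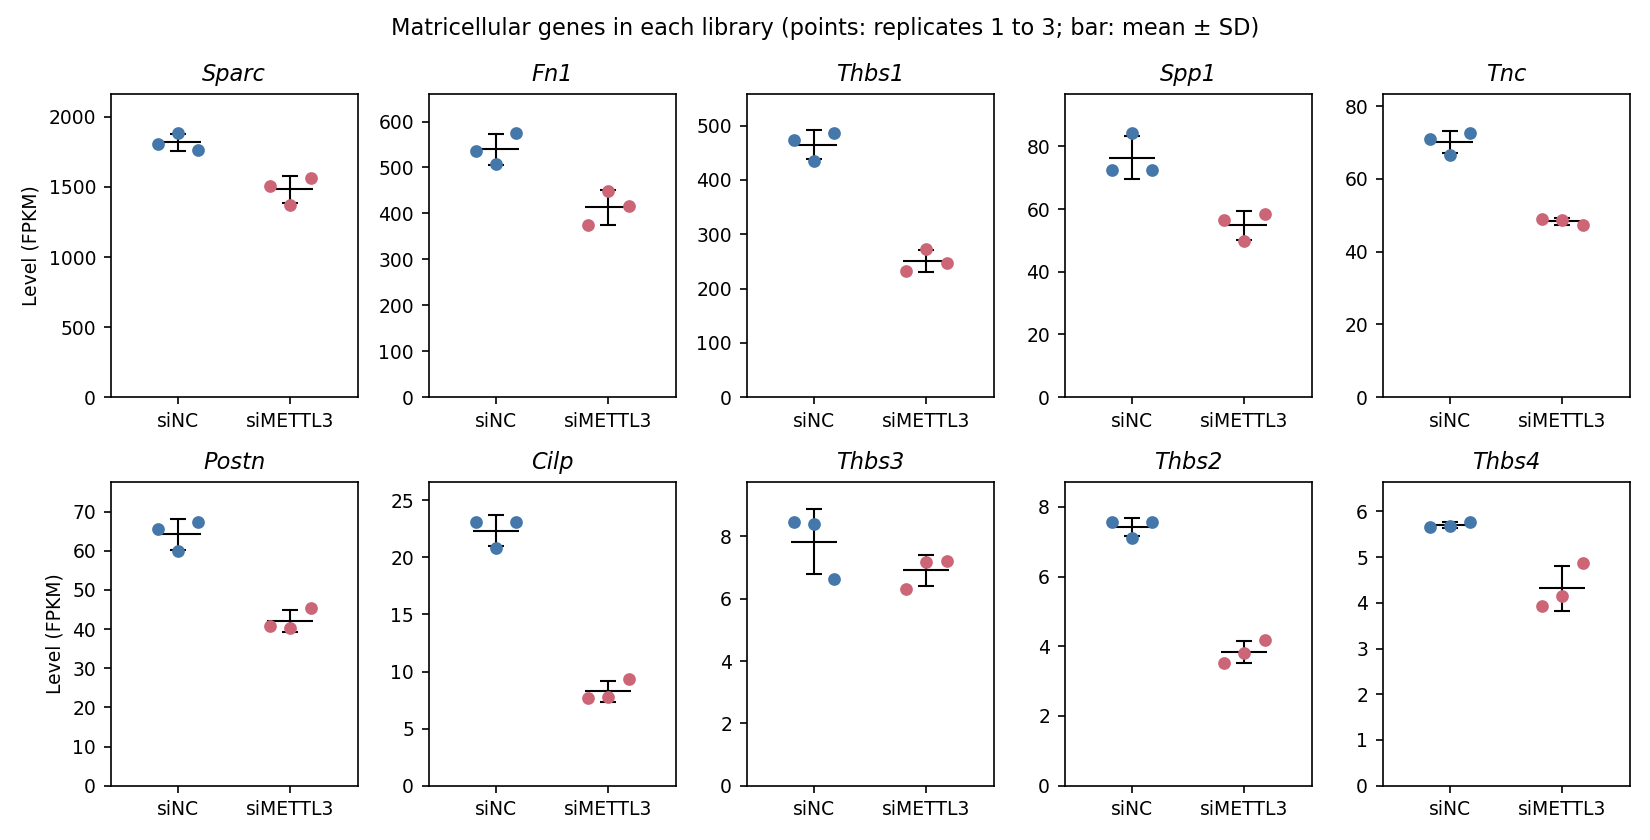
Level in FPKM (vertical axis, starting at 0, a separate scale for each gene) of the 10 genes in each library, with siNC in blue and siMETTL3 in red, and the mean ± SD of 3 libraries in black. The groups are apart for every gene but Thbs3, where siNC replicate 3 at 6.62 FPKM lies among the siMETTL3 libraries.

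Among the thrombospondins, Thbs1 was by far the most abundant. Thbs1 inhibits the growth of blood vessels through CD36 and CD47 and activates latent TGF-beta. The table places it (ENSRNOG00000045829) on chromosome 3 (plus strand), bases 109862117 to 109873466, without naming a genome build. Its level was 474, 435 and 486 FPKM in the siNC libraries and 232, 273 and 248 FPKM in the siMETTL3 libraries, and its counts were 122424 to 136847 and 64727 to 76491. The groups were far apart, and the siMETTL3 mean was 53.9% of the siNC mean. By limma the log2 fold change amounted to -0.89 (SE 0.0801, adjusted p = 0.00417), against -0.97 by edgeR (adjusted p = 0.00209).

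Thbs2, the closest relative of Thbs1 and likewise an inhibitor of blood vessel growth, was a minor transcript. It lies on chromosome 1 (minus strand), bases 56653938 to 56683731. Its siNC libraries held 7.58, 7.11 and 7.58 FPKM and its siMETTL3 libraries 3.53, 3.80 and 4.18 FPKM. That is 51.7% of the siNC mean, a log2 fold change of -0.80 (SE 0.0755, limma adjusted p = 0.00482). On the log2(FPKM + 1) scale the fold of so low a gene is compressed, and edgeR gave -1.03 (adjusted p = 0.002).

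Thbs4, which is induced in the overloaded heart and, in mouse, protects against stress of the endoplasmic reticulum, differed less. Located on chromosome 2 (minus strand), bases 22343727 to 22385855, it measured 5.66, 5.69 and 5.78 FPKM in siNC and 3.93, 4.16 and 4.88 FPKM in siMETTL3. The siNC libraries agreed to within a coefficient of variation of 1.08%, while the siMETTL3 libraries varied by 11.5% and all lay below them. The log2 fold change of -0.34 (SE 0.0837) was close to the threshold (limma adjusted p = 0.0484, edgeR adjusted p = 0.0285). Omitting 1 library at a time in the order given above moved its limma adjusted p to 0.132, 0.12, 0.0897, 0.138, 0.122 and 0.0469, so that the call held only without siMETTL3 replicate 3.

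Thbs3, a close relative of Thbs4 found in many tissues, did not pass. The gene lies on chromosome 2 (plus strand), bases 188528979 to 188540736. Its level was 8.47, 8.38 and 6.62 FPKM in the siNC libraries and 6.32, 7.18 and 7.21 FPKM in the siMETTL3 libraries. siNC replicate 3 fell within the range of the siMETTL3 libraries, so the groups overlapped. Its log2 fold change was -0.15, with a 95% confidence interval of -0.40 to 0.09 (limma adjusted p = 0.349, edgeR adjusted p = 0.186). The interval reaches below the estimate for Thbs4.

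The makeup of the family differed little between groups because Thbs1 dominated it. Thbs1 held 95.3% to 96.1% of the summed FPKM of the 4 thrombospondins in siNC and 93.8% to 94.7% in siMETTL3. The sum itself was 456 to 506 FPKM in siNC and 246 to 288 FPKM in siMETTL3. The ratio of Thbs1 to Thbs3 within a library was 51.8 to 73.5 in siNC and 34.3 to 38.0 in siMETTL3. Thbs2 exceeded Thbs4 in every siNC library, at a ratio of 1.25 to 1.34, and was below it in every siMETTL3 library, at 0.857 to 0.915. These ratios are descriptions of unequal change and carry no test.

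Cilp had the largest difference of the 10 genes. Its protein was first known from cartilage. In the mouse heart it comes mostly from fibroblasts, and it can bind TGF-beta. The gene (ENSRNOG00000029911) lies on chromosome 8 (plus strand), bases 70760922 to 70775891. Cilp measured 23.1, 20.8 and 23.1 FPKM in the siNC libraries and 7.67, 7.78 and 9.31 FPKM in the siMETTL3 libraries. The highest siMETTL3 library was thus far below the lowest siNC library, with a mean at 36.9% of the siNC mean. Limma put the log2 fold change at -1.34 (SE 0.0861, adjusted p = 0.00167) and edgeR at -1.51 (adjusted p = 0.000945). Of all tested genes, 19 had a lower limma fold change, which puts Cilp at rank 20, Thbs1 at rank 84 and Thbs2 at rank 112. The log2(FPKM + 1) scale compresses the folds of low genes, so these ranks depend on level. By edgeR Thbs2 (-1.03) lay below Thbs1 (-0.97), the reverse of their limma ranks, and no ranks were taken by edgeR. The 95% confidence interval of Cilp, -1.54 to -1.13, did not overlap that of Thbs1, -1.08 to -0.70.

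Postn, made by activated fibroblasts and needed for the maturation of collagen, and Tnc, a glycoprotein that appears at sites of tissue remodelling and loosens cell adhesion, fell to a similar degree. Postn lies on chromosome 2 (plus strand), bases 143656793 to 143688087, and measured 65.5, 59.8 and 67.4 FPKM in siNC against 40.8, 40.3 and 45.4 FPKM in siMETTL3. This amounts to -0.60 on the log2 scale (SE 0.0702, limma adjusted p = 0.00696, edgeR adjusted p = 0.00348). Tnc lies on chromosome 5 (minus strand), bases 79789671 to 79874671. It held 70.9, 66.6 and 72.6 FPKM in siNC and 49.0, 48.6 and 47.3 FPKM in siMETTL3, a log2 fold change of -0.53 (SE 0.0515, limma adjusted p = 0.00538, edgeR adjusted p = 0.00257). The siMETTL3 libraries of Tnc had a coefficient of variation of 1.89%, the smallest of the 10 genes in that group. Neither gene's groups overlapped.

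Fn1 and Sparc, the most abundant of the 10 genes, changed less. Fn1 encodes fibronectin, which carries integrin attachment sites and on which collagen is assembled. Located on chromosome 9 (minus strand), bases 78900103 to 78969078, it measured 536, 508 and 575 FPKM in siNC and 374, 450 and 416 FPKM in siMETTL3. The groups were apart but the siMETTL3 libraries varied by 9.17%. For Fn1 the change was -0.39 on the log2 scale (SE 0.0876, limma adjusted p = 0.039, edgeR adjusted p = 0.0192). In the same order of omission the limma adjusted p was 0.119, 0.0761, 0.0782, 0.117, 0.0489 and 0.0925, below the threshold only without siMETTL3 replicate 2. Another gene of the table, AABR07068042, overlaps Fn1 by 265 bases on the opposite strand, at a mean of 0.0427 FPKM.

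Sparc encodes a collagen-binding glycoprotein that takes part in the processing of procollagen. Sparc lies on chromosome 10 (minus strand), bases 40742400 to 40764185. Its level was 1808, 1884 and 1766 FPKM in the siNC libraries and 1509, 1374 and 1564 FPKM in the siMETTL3 libraries, which did not overlap. The siMETTL3 mean was 81.5% of the siNC mean. The log2 fold change of -0.30 had a 95% confidence interval of -0.50 to -0.09, and the call depended on the tool (limma adjusted p = 0.0682, edgeR adjusted p = 0.0212). After median-ratio scaling of FPKM it passed by limma as well (adjusted p = 0.0491).

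Spp1 encodes osteopontin, a ligand of integrins and of CD44 that macrophages and fibroblasts secrete. Spp1 lies on chromosome 14 (minus strand), bases 6673686 to 6679901. The siNC libraries held 72.6, 84.2 and 72.4 FPKM and the siMETTL3 libraries 56.4, 49.7 and 58.3 FPKM. The groups did not overlap, and siNC replicate 2 was the highest library and siMETTL3 replicate 2 the lowest. On the log2 scale the change was -0.47 (SE 0.0863, limma adjusted p = 0.023, edgeR adjusted p = 0.0135). The limma call was lost without siNC replicate 1 (0.0771), siNC replicate 2 (0.0586), siMETTL3 replicate 1 (0.0763) and siMETTL3 replicate 2 (0.0548). Markers of macrophages moved with it. Of 6 tested macrophage markers 5 fell and 0 rose, and the summed level of the 11 markers was 72.8 to 90.3 FPKM in siNC and 37.4 to 49.1 FPKM in siMETTL3. None was at 0 counts in all libraries. The complement components C1qa (-1.14) and C1qb (-1.01) were among those that fell. C1qb, at 2.40 ± 0.307 FPKM in siNC and 0.688 ± 0.171 FPKM in siMETTL3, reached the mean of 1 FPKM only through its siNC libraries. The lysosomal glycoprotein Cd68 went from 19.4 ± 3.10 to 11.9 ± 0.907 FPKM and lysozyme Lyz2 from 44.4 ± 3.49 to 22.8 ± 4.47 FPKM (limma adjusted p = 0.0218 and 0.0131). The level of Spp1 was 371% to 437% of that of Cd68 in siNC libraries and 455% to 461% in siMETTL3 libraries. The part of macrophage content in the level of Spp1 was not tested. Omitting 1 library at a time in the order given above left 1, 4, 5, 1, 3 and 4 macrophage markers called lower.

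Some markers of fibroblasts, the main source of several of these proteins, were lower too. Of 9 tested markers 4 fell and 0 rose, with a median log2 fold change of -0.36. EdgeR called 5 lower and DESeq2 8, where DESeq2 called 1384 of all 13105 tested genes lower. The summed level of the markers, most of it Col1a1, was 1255 to 1293 FPKM in siNC and 778 to 832 FPKM in siMETTL3. No marker was at 0 counts in all libraries. Col1a1, a chain of type I collagen, fell from 1196 ± 17.6 to 752 ± 30.2 FPKM (limma adjusted p = 0.00558), while the small proteoglycan Dcn measured 23.9, 24.3 and 24.3 FPKM in siNC and 21.8, 16.8 and 21.6 FPKM in siMETTL3 (adjusted p = 0.126) and did not pass. Islr (-0.73), Lum (-0.49) and Fbln1 (-0.36) were the other markers that fell. In the same order of omission, 1, 1, 1, 1, 1 and 3 fibroblast markers were called. The part of fibroblast content in the levels of the 10 genes was not tested.

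Relative to Col1a1 in the same library, the genes for which a ratio was taken did not move alike. No such ratio was taken for Thbs2, Thbs3, Thbs4 and Spp1. Cilp was 1.76% to 1.95% of Col1a1 in siNC and 0.998% to 1.23% in siMETTL3, and the ratio of Thbs1 to Col1a1 was 0.367 to 0.400 and 0.322 to 0.350, so both genes lost more than Col1a1 did. Postn overlapped, at 5.05% to 5.55% and 5.17% to 5.98%. Tnc went the other way, at 5.63% to 5.97% of Col1a1 in siNC and 6.24% to 6.81% in siMETTL3. So did Fn1, whose ratio to Col1a1 was 0.429 to 0.473 and 0.520 to 0.577, and Sparc, at 1.45 to 1.59 and 1.76 to 2.10. These ratios describe unequal changes and carry no test.

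**Figure D3:**
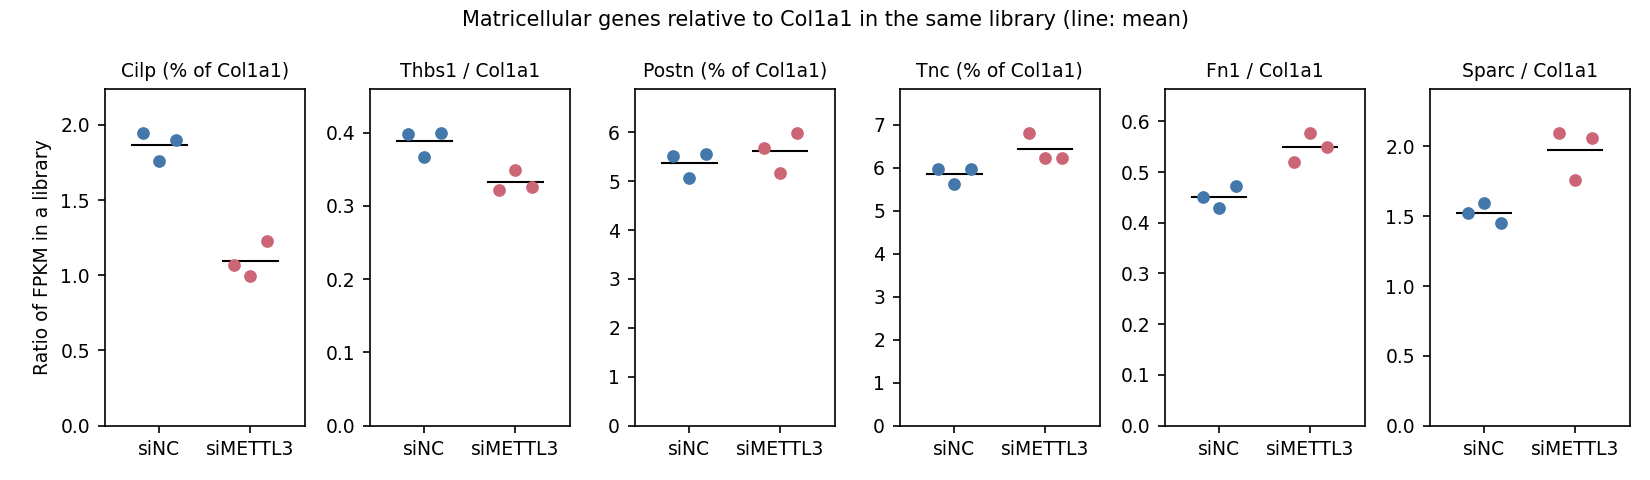
Level of 6 of the genes relative to Col1a1 in the same library (vertical axis, FPKM divided by FPKM, as a percentage for Cilp, Postn and Tnc), with points for libraries, siNC in blue and siMETTL3 in red, and lines for means. Cilp and Thbs1 are lower relative to Col1a1 in every siMETTL3 library, Fn1 and Sparc are higher in every one, and the groups of Postn overlap.

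Other cell types gave a mixed picture. Smooth muscle and pericyte markers fell in 4 of 9 cases and rose in 0. Their summed level, most of it Acta2 and Tagln, was 3741 to 4238 FPKM in siNC and 2524 to 2728 FPKM in siMETTL3. Acta2 (2386 ± 115 to 1577 ± 59.1 FPKM), Tagln, Cnn1 and Myh11, all of the smooth muscle contractile apparatus, were those that fell. Rgs5 (-0.07), Pdgfrb (-0.12), Notch3 (0.19), Cspg4 (0.26) and Kcnj8 (0.28) did not pass (limma adjusted p = 0.0609 to 0.837). Cspg4 and Kcnj8 were higher at an unadjusted p under 0.05. Omission in that order left 1, 3, 4, 1, 3 and 2 markers of this list called. Among 5 tested endothelial markers Cdh5 and Tek rose and Egfl7 fell, and the summed level was 60.3 to 63.9 and 56.1 to 60.0 FPKM. The most abundant of them, Eng (45.3 and 39.4 FPKM) and Kdr (7.03 and 7.63 FPKM), did not pass (limma adjusted p = 0.13 and 0.472). Tek and Egfl7 were called in none of the fits without 1 library, where their adjusted p was 0.0574 to 0.108 and 0.0711 to 0.133. For Cdh5 the adjusted p was 0.0442 with siNC replicate 3 omitted, 0.0434 with siMETTL3 replicate 3 omitted and 0.0543 to 0.0767 otherwise. Of 4 tested epicardial markers only the mesothelial surface protein Msln fell, from 1.70 ± 0.219 to 0.470 ± 0.109 FPKM, and the summed level was 19.9 to 20.9 and 18.2 to 20.5 FPKM. Upk1b (9.42 and 9.16 FPKM) and Tbx18 (4.61 and 5.44 FPKM), the most abundant of these, did not pass (limma adjusted p = 0.796 and 0.135). Msln averaged 1.09 FPKM over all 6 libraries and entered the test only through its siNC libraries. The Schwann cell marker S100b, the single tested gene of its list, measured 1.89 ± 0.143 and 2.66 ± 0.824 FPKM (adjusted p = 0.218). Summed Schwann cell markers were at 2.68 to 3.29 and 2.92 to 4.67 FPKM. None of the 9 tested cardiomyocyte markers passed by limma, and 1 was lower at an unadjusted p under 0.05. EdgeR called 1 lower and DESeq2 2, against 1384 of all 13105 tested genes by DESeq2. The summed level of these markers was 10347 to 11067 FPKM in siNC and 10327 to 11469 FPKM in siMETTL3. The part of these cell types in the levels of the 10 genes was not tested.

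**Figure D4:**
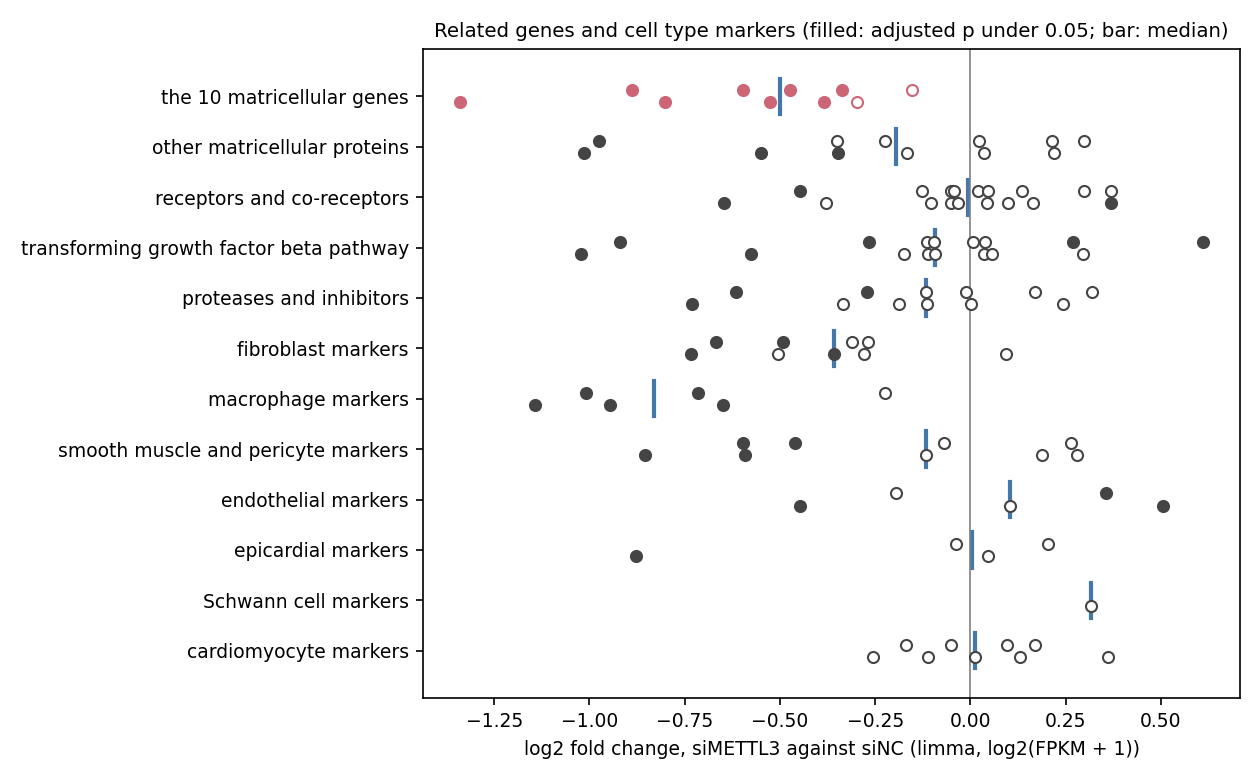
Log2 fold change (limma, horizontal axis) of each tested gene in the 10 matricellular genes (red), in 4 lists of related genes and in 7 lists of cell type markers (grey), filled where the adjusted p was under 0.05, with the median of each list as a blue bar. The median is -0.50 for the 10 genes, -0.83 for the macrophage markers, -0.36 for the fibroblast markers and 0.01 for the cardiomyocyte markers.

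Matricellular proteins outside the 10 genes fell in part. Of 12 tested genes 4 fell, 0 rose and 8 did not pass, with a median of -0.20, and edgeR called 7 lower. Ccn2 (connective tissue growth factor) stood at 425 ± 25.05 FPKM in siNC and 216 ± 18.6 FPKM in siMETTL3 (-0.98), and its relative Ccn3 at 38.4 ± 0.661 and 18.6 ± 1.78 FPKM (-1.01). Ccn1, an integrin ligand of the same family, changed by -0.55 and the calcium-binding Smoc1, of the Sparc family, by -0.35. Ccn4 (7.52 and 7.70 FPKM) and Sparcl1 (3.16 and 3.27 FPKM), the nearest relative of Sparc, did not pass, nor did the thrombospondin Comp at 2.14 and 2.65 FPKM (limma adjusted p = 0.93, 0.857 and 0.181). Omitting the libraries in the same order left 3, 3, 3, 2, 3 and 4 genes of the list called. Ccn1 was lost without siMETTL3 replicate 1 (0.0555), and Smoc1 passed only without siMETTL3 replicate 3 (0.0382, against 0.0727 to 0.112 in the other fits).

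The receptors that bind these proteins were mostly not called. Of 18 tested receptors and co-receptors 2 fell, 1 rose and 15 did not pass, with a median of -0.01. The thrombospondin receptor Cd47 measured 36.3 and 34.9 FPKM (adjusted p = 0.493), the osteopontin receptor Cd44 38.3 and 35.6 FPKM (0.192), and the shared integrin subunit Itgb1 544 and 562 FPKM (0.594). Itga8, an integrin subunit that binds osteopontin, fibronectin and tenascin, fell from 8.78 ± 0.719 to 5.23 ± 0.271 FPKM (-0.65, limma adjusted p = 0.00722). Vldlr, a lipoprotein receptor that binds thrombospondins, fell as well (-0.45, adjusted p = 0.0149), and its relative Lrp8 rose (0.37, adjusted p = 0.0252). Without siNC replicate 1 or siMETTL3 replicate 1 the adjusted p of Vldlr was 0.0727 and 0.0533, and Lrp8 was lost in each fit without 1 library (0.0516 to 0.093).

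In the TGF-beta pathway, which several of the 10 proteins regulate, 4 of 16 tested genes fell, 2 rose and 10 did not pass. Ltbp2 and Ltbp4, of the latent TGF-beta binding family, changed by -0.92 and -0.57 (limma adjusted p = 0.00167 and 0.00859) and the ligand Tgfb3 by -0.27 (0.0217). The co-receptor Tgfbr3 (0.61, adjusted p = 0.0211) and the signal transducer Smad3 (0.27, 0.0297) rose. Tgfb1, the ligand that Thbs1 activates, measured 44.6 and 41.7 FPKM (adjusted p = 0.46). Without 1 library Ltbp2 was called in every fit. Ltbp4 was lost without siNC replicate 1 (0.0501), Smad3 in every fit (0.0536 to 0.108) and Tgfb3 in all but that without siNC replicate 3 (0.039, against 0.0529 to 0.0928). Tgfbr3 was kept without siNC replicate 3 (0.026) or siMETTL3 replicate 3 (0.0478) and had 0.0526 to 0.084 in the other fits.

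Among 12 proteases and inhibitors of the matrix 3 fell, 0 rose and 9 did not pass. EdgeR called 5 lower and DESeq2 6, against 1384 of all 13105 tested genes by DESeq2. Mmp2, a gelatinase, went from 142 ± 0.579 to 92.7 ± 6.84 FPKM (-0.62, limma adjusted p = 0.00562) and was called in every fit without 1 library. The macrophage elastase Mmp12 (-0.73, adjusted p = 0.0215) and the membrane-bound Mmp14 (-0.27, 0.0362) fell as well. Omission of siNC 1 (0.0716), siMETTL3 1 (0.0786) or siMETTL3 2 (0.0601) ended the call of Mmp12, and Mmp14 was lost in every such fit (0.0586 to 0.124). Some genes of the lists where 0 genes rose by limma were higher at an unadjusted p under 0.05. They were 2 other matricellular genes, 2 proteases or inhibitors, 2 smooth muscle or pericyte markers and 1 epicardial marker. Of the fibroblast, macrophage, Schwann cell and cardiomyocyte markers 0 were higher at that p. In all of these lists edgeR and DESeq2 called 0 genes higher.

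As the table annotates them, 9 of the 10 genes belong to the collagen-containing extracellular matrix, a term that 0.686% of the 11960 annotated tested genes carry. Heparin binding was given for 6 of them, calcium ion binding for 5 and integrin binding for 4. The pathway database KEGG places 7 in ECM-receptor interaction. Of the other 73 tested genes of the collagen-containing matrix, 25 fell, 4 rose and 44 did not pass, with a median log2 fold change of -0.19. Of the other 45 genes of ECM-receptor interaction 9 fell, 1 rose and 35 did not pass, with a median of -0.03. These terms were looked up after the values had been seen.

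Among the genes whose pattern over the 6 libraries was most like that of Thbs1, by the root mean square difference of centred log2(FPKM + 1) values, were Ltbp2 (0.0553) and the fibril-associated collagen Col14a1 (0.0753). Thbs2 was at 0.0873, closest of the 10 genes, and Thbs3 was the farthest at 0.396. Col14a1 held 12.5, 11.1 and 13.7 FPKM in siNC and 5.98, 6.39 and 6.81 FPKM in siMETTL3. As the libraries fall into separate groups, a gene that differs by the same amount is near by construction.

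Promoter sequences of 8 of the 10 genes were matched by symbol in RefSeq (build GRCr8), from 250 bases before to 50 bases after the annotated start; Thbs2 and Fn1 were not matched. Those of Cilp and Thbs1 are shown because they had the largest falls with a matched promoter, and that of Thbs3 because its groups overlapped. Each is on the plus strand, at chr8:74672198-74672497, chr3:125510000-125510299 and chr2:176919349-176919648 in that order. Capitals mark matches on either strand to the motifs named in the next paragraph, and no 2 of them overlap in these sequences.
Cilp: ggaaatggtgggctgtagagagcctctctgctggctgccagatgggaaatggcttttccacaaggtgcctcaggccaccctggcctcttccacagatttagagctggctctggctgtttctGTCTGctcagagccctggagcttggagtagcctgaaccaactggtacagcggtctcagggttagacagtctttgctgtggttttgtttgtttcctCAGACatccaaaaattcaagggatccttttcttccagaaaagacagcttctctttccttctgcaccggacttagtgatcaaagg
Thbs1: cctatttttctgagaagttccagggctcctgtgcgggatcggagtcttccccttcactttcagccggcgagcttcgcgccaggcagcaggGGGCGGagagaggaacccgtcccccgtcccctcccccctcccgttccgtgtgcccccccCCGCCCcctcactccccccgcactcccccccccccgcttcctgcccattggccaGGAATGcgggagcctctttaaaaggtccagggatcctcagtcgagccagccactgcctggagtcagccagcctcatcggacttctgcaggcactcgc
Thbs3: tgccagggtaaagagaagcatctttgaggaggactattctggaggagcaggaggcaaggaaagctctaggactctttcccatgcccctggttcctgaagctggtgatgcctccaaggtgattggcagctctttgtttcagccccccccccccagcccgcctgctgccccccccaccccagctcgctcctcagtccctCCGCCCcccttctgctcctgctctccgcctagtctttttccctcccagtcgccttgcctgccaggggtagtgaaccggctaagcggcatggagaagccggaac

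The motifs searched on both strands were GGAATG, the core of the element bound by the TEAD partners of YAP; CAGAC, a box bound by SMAD factors; TGANTCA, the AP-1 site; the CArG box of serum response factor; TATAAA, the TATA box; and GGGCGG, the GC box. The TEAD core occurred in the promoters of Thbs1, Thbs4 and Sparc, 3 of 8, and in 14.2% of all 33469 promoters of the same length. In Thbs1 its first base lies at -47 from the start. The SMAD box occurred in 6 of 8 and in 50.1% of all promoters, with matches at -129 and -34 in Cilp and none in Thbs1 or Thbs3. Thbs1 and Thbs3 hold the GC box, as do 33.1% of all promoters. The TATA box was found in Tnc, Spp1 and Postn (14.2% of all promoters). AP-1 sites and CArG boxes, present in 7.33% and 1.64% of all promoters, had 0 matches in these 8. By base composition the promoters of Thbs1 (67.0% G or C) and Cilp (51.0%) differ, against a median of 51.7% over all promoters. A match describes letters in this window and is no evidence of binding.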

How the data were processed

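Total RNA of 6 cultures was sequenced with paired ends. The deposited table holds FPKM computed by the authors and, per its column headers, counts. A value of 0.0001 FPKM stands where the count is 0. Once a factor per library was allowed for, the ratio of count to FPKM was constant for each gene to within 1% in 98.4% of values (14527 genes, each library at 20 counts or more). FPKM is itself a count scaled by length and depth, so this ratio cannot show whether the deposited counts were derived from coverage. Bowtie 0.12.2 and mm8, a mouse build, appear in the submitters' processing notes with no role given. The aligner, quantifier, annotation and genome build of this rat table, and whether strand was used, are not given in the sources used here, and gene coordinates are as the table has them.

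The test was limma 3.58.1 (R 4.3.3; moderated variances with an intensity trend, 2-sided) on log2(FPKM + 1) for genes averaging 1 FPKM or more, adjusted by Benjamini-Hochberg over 13105 genes at 0.05. Fold changes on this scale understate those of genes of low level. It had been set for a table of FPKM. Because counts are given too, edgeR 4.0.16 (the quasi-likelihood test with TMM scaling) stands beside it, and DESeq2 1.42.0 was run as a further alternative. Alternatives were the scaling, pseudocount (0.1), filters (none, or a mean of at least 5 FPKM), leaving out each library and a replicate block. No value column was left unassigned.

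The members, gene lists and tests were chosen with earlier results of these data known. Named beside the members were Mettl3, up to 4 called genes per direction in each list of related genes with the smallest p, the 2 most abundant and up to 3 called genes of each cell type list, and the 3 genes nearest to Thbs1; some genes that this rule names are not reported here. Outside that rule, some genes were chosen after their values were seen. They are Fbln1 and the genes that did not pass among matricellular proteins, receptors, ligands, and smooth muscle and pericyte markers. Of the 126 listed symbols, those found numbered 121.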

Additional observations from a re-analysis of the deposited data

How the results depend on the processing

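Under every alternative that was run (edgeR with 2 normalizations and without the filter, DESeq2, another pseudocount, 2 other filters, median-ratio scaling, omission of each library, and a replicate block by limma and edgeR) all 10 genes kept a fold change below 0, and 0 were called higher. Thbs3 passed in none of these. By limma, another filter or the replicate block cannot alter a fold change, so in those fits its sign was fixed. The number of the 10 genes called lower was 8, and 9 by edgeR, by DESeq2 and after median-ratio scaling. It was 6 without a filter, where Fn1 and Thbs4 were not called, and 7 at a mean of at least 5 FPKM, where Thbs4 was not called. With 1 library omitted it was 5 to 7, in fits that by construction have fewer samples. Calls over all genes numbered 1432 (856 higher, 576 lower). There were 2394 by DESeq2 (1010 higher, 1384 lower), 903 without a filter on FPKM (500 higher), 444 higher by edgeR, 452 higher by edgeR with median-ratio factors, 308 higher by edgeR without the filter and 358 higher after median-ratio scaling of FPKM. With 1 library left out they ranged from 206 to 861, with 83 to 471 higher and 123 to 390 lower. The cause of these differences in the number of calls was not tested.

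The deviations of same-numbered libraries from their group means correlated at 0.035, -0.25 and -0.12 for replicates 1, 2 and 3. With so few libraries per group the deviations constrain one another, so these values cannot decide whether the samples were paired. Not every library correlated best with its own number: siNC replicate 3 did so with siMETTL3 replicate 2 (0.266). With the replicate number as a block limma called 6 genes (1 higher, 5 lower), of which 1, Cilp, was among the 10 genes. The edgeR fit with the block called 64 (14 higher, 50 lower), 4 of them among the 10: Cilp, Thbs1, Thbs2 and Postn.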
